A study of Mus musculus with 2 samples.

Results

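The genes described are the chemokines, the small secreted proteins that steer the migration of white blood cells, and the receptors that read them. Members were the rows whose symbol is a Ccl, Cxcl, Xcl or Cx3cl ligand name or a Ccr, Cxcr, Xcr or Cx3cr receptor name followed by a number, which gave 52 of 19320 features, 34 ligands and 18 receptors. Prostate cells came from mice of the genotype R26 mTmG/hAR:Osr1 Cre/+, dissociated with collagenase and TrypLE and sequenced with 10x 3' v2 chemistry. In these mice a Cre recombinase driven by the Osr1 promoter switches on 2 alleles of the Rosa26 locus, a human androgen receptor transgene (hARtg, the feature ARQ) and a membrane green fluorescent protein (mGFP, the feature EGFP), and both samples carried the same alleles. The samples were hARtg-Osr1Cre_PIN, from prostatic intraepithelial neoplasia, and hARtg-Osr1Cre_PCa, from prostate adenocarcinoma of older mice, with 1 library each and no untransgenic control analysed here.

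The cells fell into 2 sets by the ending of their barcodes, with 6332 cells in set 1 and 9410 cells in set 2. No GEO label ties an ending to a tissue, and cell numbers stated elsewhere were not used to assign one, so the sets stand here for libraries alone and are not read as PIN against PCa. The sets shared 67 barcodes, and the median total was 17235 UMIs (unique molecular identifiers, each counted as 1 RNA molecule) per cell in set 1 and 14824.5 in set 2. After removal of likely doublets, 6177 and 9235 cells were kept. Clusters were named from marker genes as luminal-like (2561 cells in set 1 and 7783 in set 2), basal-like (1704 and 360), proximal or urethral luminal-like (554 and 192, called proximal-like here), fibroblast-like (196 and 360), endothelium-like (40 and 171) and leukocyte-like (1116 and 280), and 1 small cluster led by Rgs5 stayed unnamed. Different clusters held most luminal-like cells of each set. Set 1 had 1335 of them in cluster 3, and set 2 had 1804, 1773, 1524 and 1420 in clusters 1, 2, 4 and 5, of which 2, 4 and 5 held almost no cell of set 1.

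Levels are CPM, counts per 1000000 UMIs, from UMIs summed over the cells of a group, and shares of cells refer to cells thinned at random to 3000 UMIs each so that deep and shallow cells could be set side by side. Because a set is 1 library, no test was possible, and the 95% intervals (exact Poisson for CPM, conditional binomial for ratios) cover counting error only. CPM and shares follow relative RNA amounts, so a smaller amount of a gene and a larger amount of all other RNA in a cell cannot be told apart. Chemokine genes were kept out of the features used for clustering, and levels by class are descriptions. The 51 cells of set 2 that clustered as T-like also carried the macrophage gene C1qa at 3050 CPM, in 53.6% of thinned cells against 28.6% for the T cell gene Cd3e. Their values are therefore not read as those of T cells.

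Chemokines carry a pattern of cysteines near the amino end that names the families, C, CC, CXC and CX3C. Most act through G protein-coupled receptors, and a receptor often reads several ligands while a ligand often acts on several receptors. Neutrophil-attracting CXC ligands (Cxcl1, Cxcl2, Cxcl3, Cxcl5) and Ccl20 are known to be induced by NF-kB downstream of Tnf and interleukin 1, and Cxcl9 and Cxcl10 by interferon. In glandular epithelium these genes are known for responses to infection and tissue damage.

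Of the 52 genes, 43 reached 50 UMIs over the kept cells, 30 ligands and 13 receptors. The other 9 were the receptors Cxcr1 (3 UMIs), Cxcr5 (21), Ccr3 (12), Ccr4 (28) and Ccr8 (24) and the ligands Ccl1 (5), Ccl19 (19), Ccl24 (8) and Ccl28 (33), whose distribution was not detectable at this depth. Cxcl2 had 54780 UMIs in all, Cxcl16 54244, Cxcl10 45639 and Cxcl1 36625. The ligand genes lie in groups on the chromosomes (RefSeq, GRCm38.p6). Cxcl5, Cxcl3, Cxcl1 and Cxcl2 span chromosome 5 from 90759298 to 90905938, and Cxcl9 (92321331 to 92328079) and Cxcl10 (92346638 to 92348889) follow on the same chromosome. Ccl2 starts at 82035577 on chromosome 11, and the annotated models of Ccl3 (83647843 to 83649378) and Ccl4 (83648624 to 83664683) overlap there, so reads of those 2 genes may be split between them. Ccl21a, Ccl27a and Ccl19 have near-identical copies in the mouse genome, and their counts are uncertain for that reason.

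Promoter windows of 300 bases (250 before to 50 after the annotated start) were available from RefSeq for 39 of the 52 genes. The 5 windows printed here were picked from ligands whose levels differed with EGFP or between the sets. Each held a match to a motif searched for NF-kB or interferon factors. Other ligands, such as Cxcl14 and Ccl9, met the same conditions and are not printed. Capitals mark the matched letters on either strand, and each sequence reads 5′ to 3′ on the gene's own strand.
Cxcl1, chr5:90890995-90891294, plus strand: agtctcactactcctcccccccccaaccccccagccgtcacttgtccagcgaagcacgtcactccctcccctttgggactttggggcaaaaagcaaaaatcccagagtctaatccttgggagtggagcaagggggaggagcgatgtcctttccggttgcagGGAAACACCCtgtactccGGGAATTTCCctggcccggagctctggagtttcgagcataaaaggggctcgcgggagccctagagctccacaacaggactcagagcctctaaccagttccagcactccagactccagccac
Cxcl2, chr5:90903649-90903948, plus strand: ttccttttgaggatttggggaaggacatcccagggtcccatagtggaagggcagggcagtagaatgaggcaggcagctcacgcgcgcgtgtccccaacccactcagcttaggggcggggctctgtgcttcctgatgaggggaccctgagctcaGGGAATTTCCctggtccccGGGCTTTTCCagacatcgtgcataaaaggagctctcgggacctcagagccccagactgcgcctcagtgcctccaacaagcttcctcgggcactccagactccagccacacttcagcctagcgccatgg
Cxcl3, chr5:90785851-90786150, plus strand: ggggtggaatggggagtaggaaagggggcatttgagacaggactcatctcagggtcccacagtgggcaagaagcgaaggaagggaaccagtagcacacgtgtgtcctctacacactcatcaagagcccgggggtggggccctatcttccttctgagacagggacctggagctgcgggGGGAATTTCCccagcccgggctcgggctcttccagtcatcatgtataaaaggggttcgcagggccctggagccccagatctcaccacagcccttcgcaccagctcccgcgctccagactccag
Ccl20, chr1:83116516-83116815, plus strand: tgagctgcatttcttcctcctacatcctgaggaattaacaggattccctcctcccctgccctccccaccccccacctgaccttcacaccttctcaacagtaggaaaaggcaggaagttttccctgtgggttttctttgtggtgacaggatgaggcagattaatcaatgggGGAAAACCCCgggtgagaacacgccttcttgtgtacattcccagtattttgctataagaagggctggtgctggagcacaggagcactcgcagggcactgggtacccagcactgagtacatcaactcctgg
Cxcl10, chr5:92348840-92349139, minus strand: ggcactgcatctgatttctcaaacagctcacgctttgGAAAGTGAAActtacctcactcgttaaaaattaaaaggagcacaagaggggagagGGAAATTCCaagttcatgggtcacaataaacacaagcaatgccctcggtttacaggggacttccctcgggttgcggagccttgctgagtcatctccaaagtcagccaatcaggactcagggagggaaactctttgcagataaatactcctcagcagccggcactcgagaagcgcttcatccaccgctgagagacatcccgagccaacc

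The NF-kB pattern of GGG and TTTCC with any 2 bases between them, read on both strands, was present in a window of 6 of the 39 genes (15.4% of genes: Ccl20, Ccl9, Ccr3, Cxcl1, Cxcl2 and Cxcl3) and in 1.63% of 32851 promoter windows of the same length. The second pattern, GGAATTTCC, which can overlap the first, was present for 5 genes (12.8% of genes: Ccr3, Cxcl1, Cxcl2, Cxcl3 and Cxcl10) and in 0.317% of all windows. The 39 genes had 43 windows, so these shares of genes and shares of windows are set side by side and are not the same measure. Matches of the first pattern began at −89 and −71 in Cxcl1, −97 and −78 in Cxcl2, −73 in Cxcl3 and −80 in Ccl20, and that of the second pattern in Cxcl10 at −158. The interferon-response pattern, TTTC repeated after any 2 bases, was found in Ccl19, Cxcl10 (at −213) and Cxcl14, 7.69% of the 39 genes against 3.44% of all windows, and the STAT pattern TTCNNNGAA in Ccl17, Ccr6 and Cxcl14, against 8.3% of all windows. A match describes letters in the window and says nothing about binding.

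The first question was which cells made each ligand. Of the 28 ligands with 50 UMIs or more in set 1, 7 had their highest CPM in an epithelial class, 12 in a stromal class and 9 in leukocyte-like cells. In set 2 the same counts were 3, 10 and 13, with 2 more highest in the unnamed cluster. The share of all genes highest in each class was not computed, so these counts describe the ligands alone. The highest class was the same in both sets for 17 of 26 ligands that could be ranked in both.

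**Figure D1:**
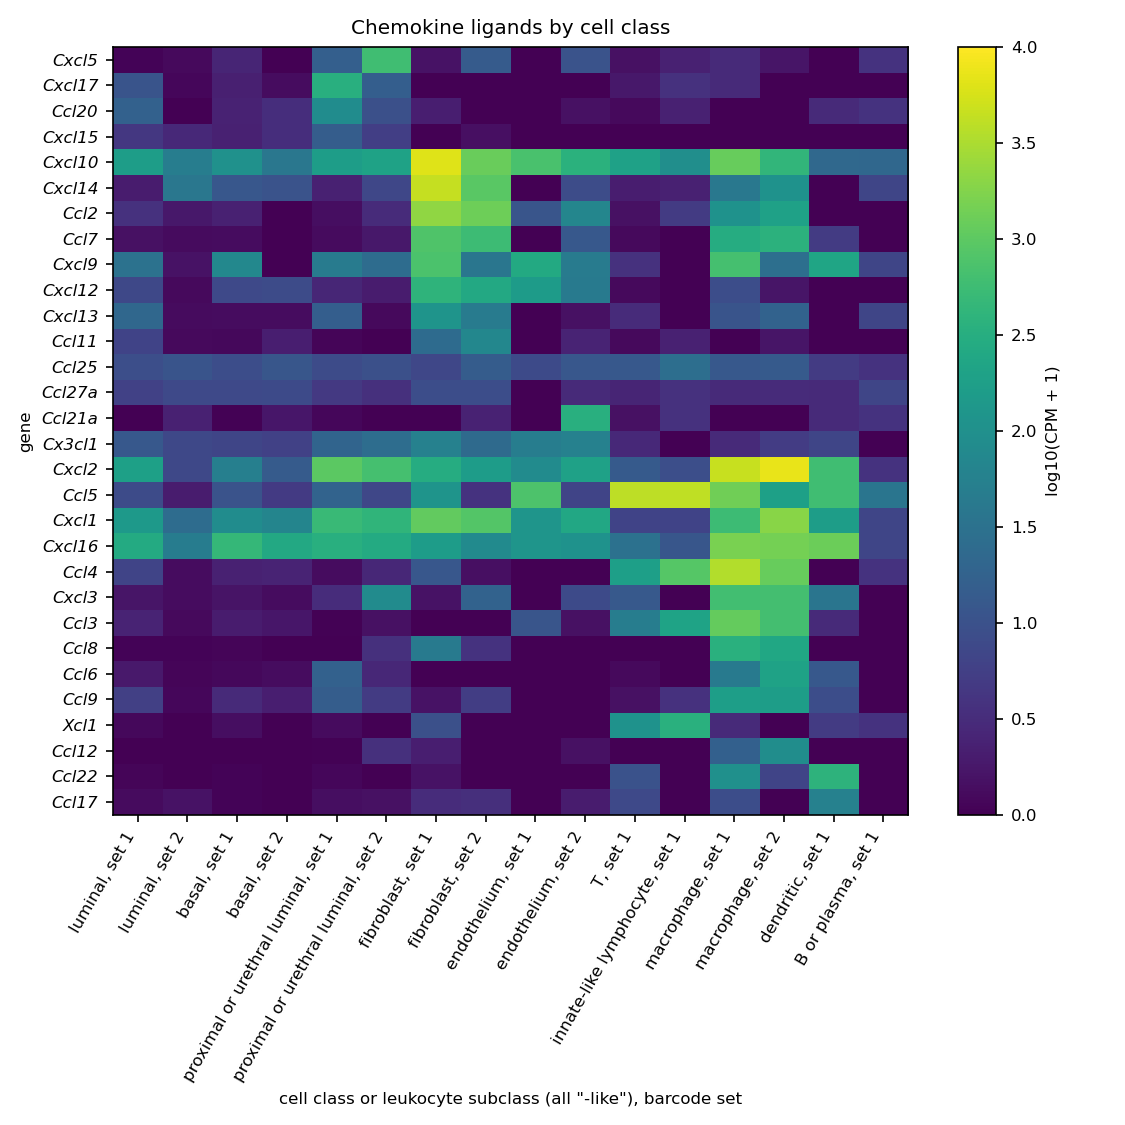
Levels of the 30 ligands with 50 UMIs or more, as log10(CPM + 1), in each cell class and leukocyte subclass of each barcode set (columns). Fibroblast-like columns are high for Cxcl10, Cxcl14 and Ccl2, macrophage-like columns for Cxcl2, Ccl4 and Cxcl16, and the T-like and innate-like columns of set 1 for Ccl5.

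Fibroblast-like cells were high for several stromal ligands. Cxcl10, a ligand of Cxcr3, was at 6292 CPM (95% interval 6176 to 6410) there in set 1 and at 1214 CPM (1167 to 1262) in set 2, in 78.7% and 48.5% of thinned cells. Cxcl14, a CXC chemokine of epithelium and stroma, was at 4406 CPM (4309 to 4505) and 934 CPM (893 to 976). Both genes were lower in the fibroblast-like cells of set 2. Cxcl14 in set 1 stood 8.60 log2 units above the next class, basal-like cells, where it was at 11.4 CPM. Ccl2, which attracts monocytes through Ccr2, was at 2133 CPM (2066 to 2202) and 1327 CPM (1278 to 1377), and its neighbour Ccl7 at 788 and 557 CPM. Cxcl12, the ligand of Cxcr4 made by stromal cells of many organs, was at 394 CPM (365 to 424) and 260 CPM (238 to 283), in 34.4% of thinned cells in both sets. Fibroblast-like cells thus held Ccl2, Ccl7 and Cxcl12 in both sets, with less than a 2-fold gap between the sets.

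Other ligands of these cells rested on fewer molecules or cells. Cxcl1 was at 1080 CPM in set 1 and 859 CPM in set 2, and 46.8% of its UMIs in set 1 came from 5 cells. Cxcl9 was at 743 CPM (703 to 784) in set 1 and 36 CPM (28.3 to 45.1) in set 2. Cxcl13, the B cell attractant, was at 116 and 45.5 CPM, with 81.5% and 84.2% of its UMIs in 5 cells. The eosinophil attractant Ccl11 was higher in set 2, at 70 CPM against 23.8 CPM. Beside these values, the summed leukocyte markers in the fibroblast-like cells were 886 CPM in set 1 and 240 CPM in set 2, with Ptprc at 18.1 and 2.4 CPM, and their part in the levels was not tested.

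Endothelium-like cells of set 2 held Ccl21a, a ligand of Ccr7 made by lymphatic endothelium, at 336 CPM (311 to 363), and 5 cells held all of its UMIs. Cx3cl1, the membrane-anchored ligand of Cx3cr1, was at 57 CPM (47 to 68.5) in these cells, and in set 1 it was highest in fibroblast-like cells at 55.4 CPM (45 to 67.5). Endothelium-like Cxcl10 was at 353 CPM in set 2 and at 698 CPM in set 1, where 5 of the 40 cells held 91.5% of it.

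Among epithelial cells, the proximal-like class held the neutrophil-attracting ligands. In set 1 Cxcl2 was at 995 CPM (980 to 1010), in 38.2% of thinned cells, and Cxcl1 at 519 CPM (508 to 529), in 37.8%. In set 2 the levels were 668 CPM (643 to 695; 55% of the UMIs in 5 cells) for Cxcl2 and 417 CPM (397 to 438) for Cxcl1. Luminal-like cells of set 1 had 189 CPM of Cxcl2 and 143 CPM of Cxcl1, and basal-like cells had 51.8 and 87.7 CPM. Both ligands were thus several-fold higher in the proximal-like class than in the other epithelial classes of set 1.

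The 2 proximal-like clusters differed from each other. Over both sets pooled, cluster 11 was led by Sbpl and Sbp. Without integration, a cluster led by these genes held 4 cells of set 1 and 89 of set 2. The 2 genes are therefore not shown to mark the set 1 cells of cluster 11. In set 1, cluster 11 had 1473 CPM of Cxcl2, 715 CPM of Cxcl1 and 547 CPM of Cxcl17, a mucosal chemokine present in 63.6% of its thinned cells. Cluster 13, led by Msln, Ltf and Psca, had 353 CPM of Cxcl2, 255 CPM of Cxcl1 and 40.3 CPM of Cxcl17, in 8.47% of thinned cells. In set 2 the order turned, and cluster 13 had 1125 CPM of Cxcl2 and 501 CPM of Cxcl1 against 200 and 330 CPM in cluster 11. Whether cluster 11 held the same kind of cell in both sets was not tested. Cxcl5, another Cxcr2 ligand, was at 1147 CPM in cluster 13 of set 2, in 38.8% of thinned cells, and at 23.8 CPM in cluster 11. In set 1 Cxcl5 was at 25 CPM in cluster 13 and 8.42 CPM in cluster 11. Cxcl17 was at 20.1 and 9.51 CPM in clusters 13 and 11 of set 2, so the levels of Cxcl5 and Cxcl17 were each high in 1 cluster of 1 set. Ccl20, the ligand of Ccr6, was at 122 CPM in cluster 11 and 40 CPM in cluster 13 of set 1, and 62.7% of its UMIs in the class came from 5 cells.

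Cxcl16, a membrane-bound ligand of Cxcr6, was present in every epithelial class. It was at 467 CPM (458 to 476) in basal-like cells of set 1, in 69.5% of thinned cells, at 332 CPM (324 to 341) in proximal-like cells and at 281 CPM (278 to 285) in luminal-like cells. Set 2 had 262 CPM (243 to 282) in basal-like, 280 CPM (264 to 298) in proximal-like and 46.6 CPM (45.6 to 47.6) in luminal-like cells. The luminal-like cells of set 2, in 12.5% of which it was seen after thinning, were low beside the other epithelial groups. By cluster, Cxcl16 ran from 131 to 397 CPM over luminal-like clusters 1, 3, 7 and 10 of set 1 and from 32.6 to 93.6 CPM over the clusters of set 2.

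**Figure D2:**
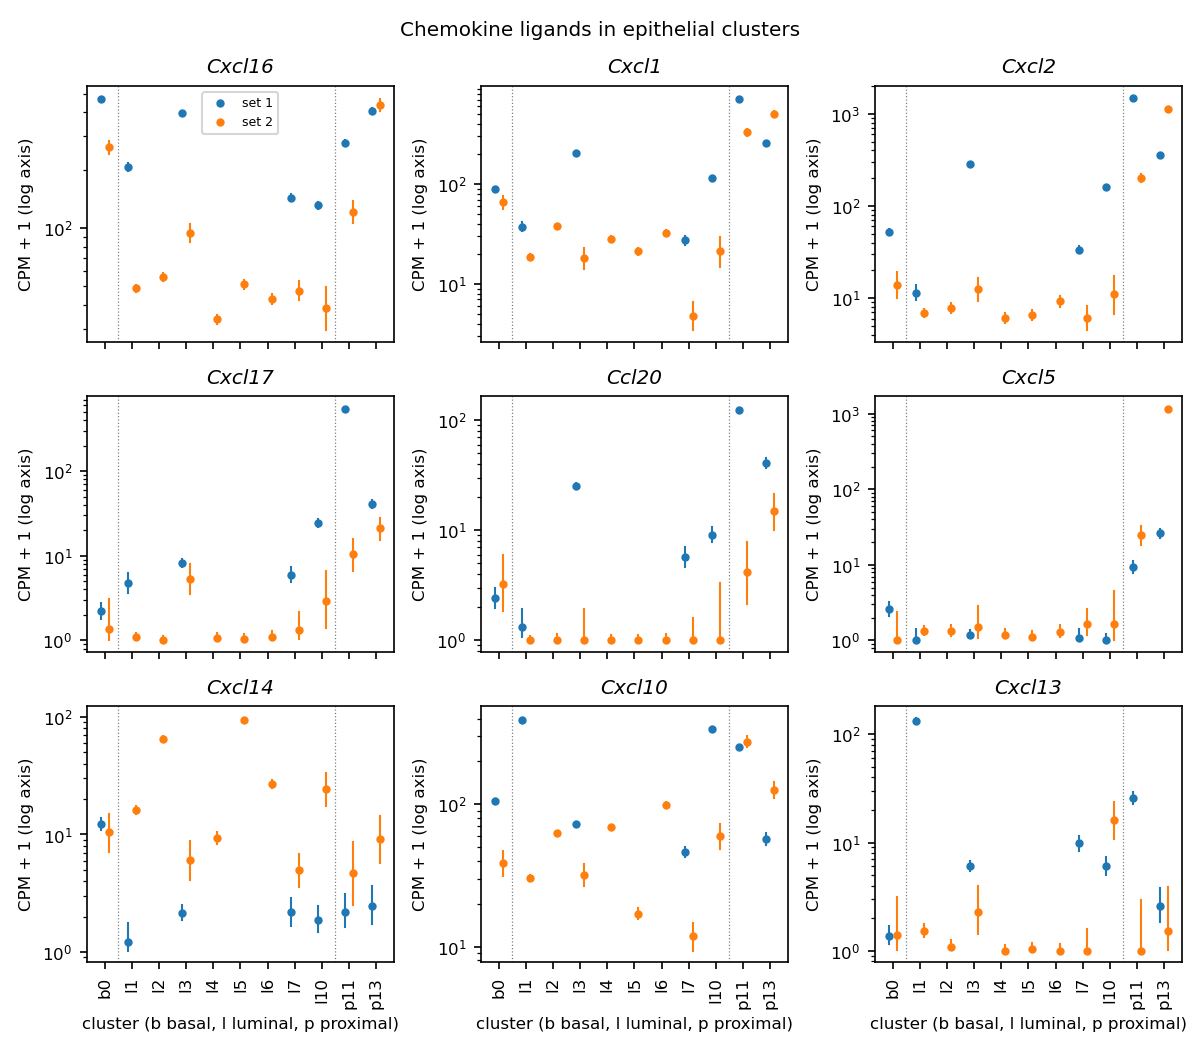
Levels of 9 ligands by epithelial cluster (b basal-like, l luminal-like, p proximal-like) as CPM + 1 on a log axis, with set 1 in blue and set 2 in orange; bars are 95% Poisson intervals of the counts. Cxcl17 is high in cluster 11 of set 1, Cxcl5 in cluster 13 of set 2 and Cxcl14 in luminal-like clusters 2 and 5 of set 2.

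Within the luminal-like class, the interferon-induced ligands Cxcl10 and Cxcl9 and the B cell attractant Cxcl13 were uneven. Over both sets pooled, cluster 1 was led by seminal vesicle secretion genes such as Svs5. Without integration, a cluster led by Svs5 held 1 cell of set 1 and 1802 of set 2. Such genes are therefore not shown to mark the set 1 cells of cluster 1. In set 1, cluster 1 had 390 CPM of Cxcl10, 134 CPM of Cxcl9 and 133 CPM of Cxcl13, and 5 cells held 58% of that Cxcl13. Cluster 10, led by Wfdc3, Msmb and Pbsn, had 336 CPM of Cxcl10 and 61.3 CPM of Cxcl9, whereas cluster 3 had 72 CPM of Cxcl10. In set 2, Cxcl10 lay between 10.8 and 98.4 CPM over the luminal-like clusters. Cxcl14 was at 93.9 CPM (90.5 to 97.3) in cluster 5 and 64.6 CPM (61.6 to 67.6) in cluster 2 of set 2, and at 3.97 to 26.1 CPM in the other clusters. Clusters 2 and 5 held 1773 and 1420 cells of set 2 and 2 and 0 cells of set 1, so a cell state and a library cannot be told apart there. Ccl25, the ligand of Ccr9, was low in every class, between 6.22 and 13.4 CPM over the classes with 30 cells or more.

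Among the leukocyte-like cells, those named macrophage-like numbered 52 in set 1 and 183 in set 2. Of the subclasses with 30 cells or more, they held the widest range of ligands. In either set, 15 of the 34 ligands were in at least 10% of thinned macrophage-like cells. The share of all genes reaching that limit was not computed, so the count describes the ligands alone. Cxcl2 was at 4661 CPM (4475 to 4852) in set 1 and 7375 CPM (7236 to 7516) in set 2, and Cxcl16 at 1548 and 1468 CPM. The inflammatory CC ligands Ccl4 and Ccl3 were at 3422 and 1149 CPM in set 1 and at 1193 and 626 CPM in set 2. Macrophage-like cells were therefore high for these 4 ligands in both sets. Ccl8, Ccl9 and Ccl6 were at 341, 174 and 41.2 CPM in set 1 and at 243, 170 and 203 CPM in set 2. Cxcl3 was at 606 and 636 CPM, with 93.2% of the set 1 UMIs in 5 cells.

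Dendritic-like cells (35 and 21 cells) held the Ccr4 ligands. Ccl22 was at 386 CPM in set 1, in 35.3% of thinned cells, and at 275 CPM in set 2, and Ccl17 at 56.9 and 164 CPM. Cxcl16 was at 1267 and 982 CPM in the same cells. Lymphocytes of set 1 were marked by Ccl5, which attracts T cells and monocytes. Ccl5 was at 4060 CPM (3996 to 4125) in 800 T-like cells, in 69.2% of thinned cells, and at 4151 CPM (4006 to 4300) in 182 innate-like lymphocytes, in 94.9%. T-like clusters ranged from 8968 CPM of Ccl5 in cluster 1 to 446 CPM in cluster 4. Xcl1, a ligand of cytotoxic and natural killer cells for Xcr1, was at 348 CPM (307 to 393) in innate-like and 109 CPM in T-like cells. The 2 lymphocyte subclasses had nearly the same Ccl5 level, and the T-like clusters were far apart.

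Receptors were next set against cell class. In set 1 all 11 receptors with 50 UMIs or more were highest in leukocyte-like cells. In set 2 it was 5 of 7, and the other 2 were Cxcr4 in endothelium-like cells and Ccr2 in the unnamed cluster, where its 14 UMIs came from 5 cells. As for the ligands, the share of all genes highest in each class was not computed. No receptor passed 1.52 CPM in luminal-like or basal-like cells. Cxcr2, the receptor of Cxcl1, Cxcl2, Cxcl3 and Cxcl5 on neutrophils, had 34 UMIs (0.413 CPM) in luminal-like and 1 UMI in leukocyte-like cells of set 1.

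**Figure D3:**
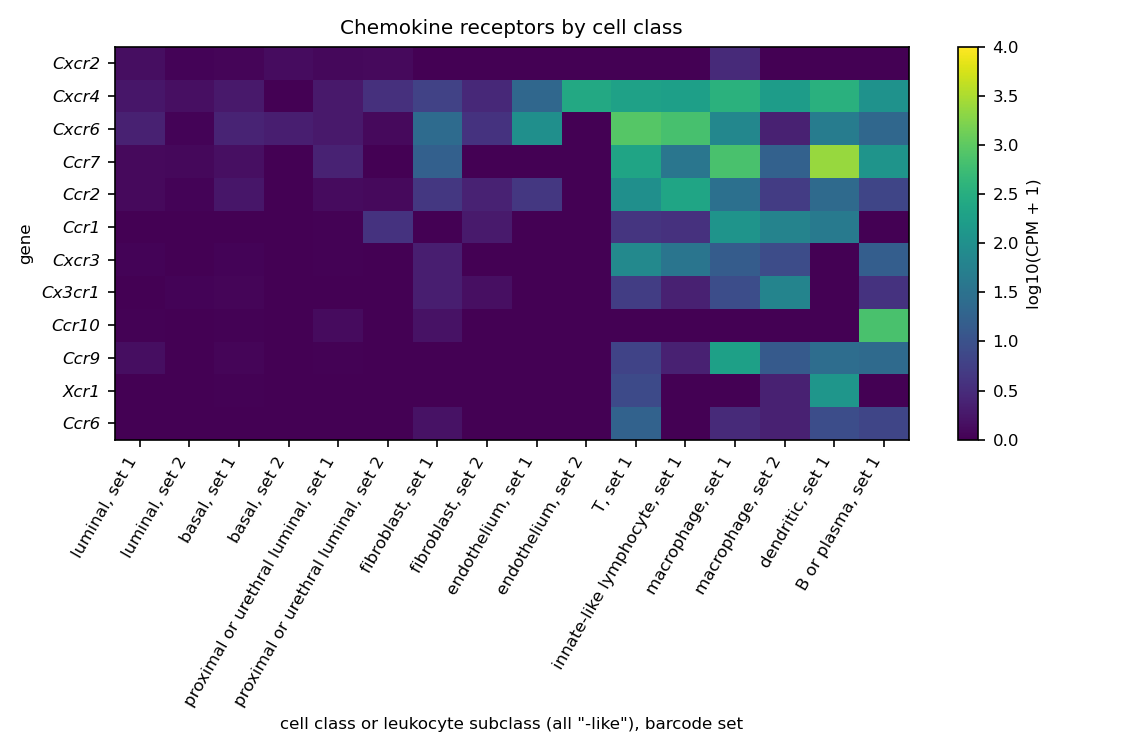
Levels of 12 receptors with 50 UMIs or more, as log10(CPM + 1), in the same classes and subclasses as for the ligands. Signal lies in the leukocyte-like columns, with Cxcr6 high in T-like and innate-like cells, Ccr7 in dendritic-like cells and Ccr10 in B or plasma-like cells of set 1, and Cxcr4 also in endothelium-like cells of set 2.

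Cxcr6, the receptor of Cxcl16 on tissue-resident and activated T cells, was at 875 CPM (846 to 906) in T-like cells of set 1, in 68.5% of thinned cells, and at 690 CPM in innate-like cells, in 62.7%. T-like clusters 1 and 4 had 1658 and 1249 CPM, in 93.8% and 91.2% of thinned cells, and cluster 7 had 335 CPM. Cxcr3, which reads Cxcl9 and Cxcl10, was at 74.7 CPM (66.2 to 84) in T-like cells, with 145 CPM in cluster 0 and 8.31 CPM in cluster 1. Ccr2 was at 223 CPM (190 to 260) in innate-like cells and 551 CPM in T-like cluster 4, against 24.9 CPM in cluster 1. Of the 5 T-like clusters, cluster 1 thus had the highest level of Cxcr6 and the lowest of Cxcr3.

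In dendritic-like cells Ccr7, which leads dendritic cells and naive T cells to lymph nodes, was at 2392 CPM (2260 to 2531) in set 1 and at 1427 CPM (1253 to 1617) in set 2, in 85.3% and 61.9% of thinned cells. T-like cluster 5 had 1068 CPM and cluster 1 had 7.27 CPM. Xcr1, a receptor of cross-presenting dendritic cells, was at 124 CPM (94.9 to 158) in dendritic-like cells of set 1. Cxcr4 was spread over subclasses, at 355 CPM in macrophage-like, 341 CPM in dendritic-like, 193 CPM in T-like and 179 CPM in innate-like cells of set 1. In endothelium-like cells it was at 256 CPM (234 to 279) in set 2, in 38.6% of thinned cells, and at 20.9 CPM in the 40 cells of set 1.

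Ccr10, a receptor of plasma cells that home to mucosa, was at 715 CPM (628 to 809) in the 31 B or plasma-like cells of set 1. All 31 had a UMI before thinning and 77.4% after it, and their 247 UMIs were all the Ccr10 of leukocyte-like cells in that set. Ccr1 was at 118 and 59.8 CPM and Cx3cr1 at 7.84 and 63.9 CPM in macrophage-like cells of sets 1 and 2. Macrophage-like Ccr7 and Ccr9 in set 1 came mostly from 5 cells, which held 80.9% and 97.9% of the UMIs. Ccr6 was at 16.8 CPM (12.9 to 21.5) in T-like cells, in 3.06% of thinned cells, a low level.

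Receptors and ligands were then put side by side in 37 textbook pairs. Set 1 had 50 UMIs or more for both genes in 18 pairs, and in 4 of them ligand and receptor were highest in the same cells, among them Ccr1 with Ccl3, Ccl6 and Ccl9 in macrophage-like cells. The ligand was highest in a stromal class in 7 pairs, such as Cxcl9 and Cxcl10 in fibroblast-like cells with Cxcr3 in T-like cells, Ccl2 and Ccl7 with Ccr2 in innate-like cells, and Cxcl12 with Cxcr4 in macrophage-like cells. It was epithelial in 1 pair, Ccl20 in proximal-like cells with Ccr6 in T-like cells. Cxcl16 was highest in macrophage-like cells and Cxcr6 in T-like cells, and Xcl1 was highest in innate-like and Xcr1 in dendritic-like cells. Set 2 had 15 such pairs, 8 of them highest in the same cells, 6 with a stromal ligand and 0 with an epithelial one. Its T-like cells counted towards the 50 UMIs but were left out of the ranking. They held 80 of the 121 Cxcr6 UMIs and 25 of the 69 Ccr2 UMIs of set 2. The group ranked highest for either receptor there held 6 UMIs, so the pairs of these receptors are uncertain. Groups of fewer than 30 cells were left out, among them the 21 dendritic-like cells of set 2. Macrophage-like cells were thus the only leukocyte group ranked in set 2. The pair counts of set 1 and set 2 therefore rest on different groups and cannot be compared. These counts place transcripts and do not show contact or signalling.

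The reporter then allowed epithelial cells with much and with little EGFP to be compared inside a class and set. Cells were called EGFP-high with at least 5 EGFP UMIs and at least 4 times the EGFP level of leukocyte-like cells of the same set. EGFP-low cells were at or under that leukocyte-like level, which was 75.3 CPM in set 1 and 1020 CPM in set 2. It was taken to stand for free RNA, but 5 cells held 47.7% and 35.7% of these EGFP UMIs. Macrophage-like cells alone were at 21.6 and 346 CPM, so the limits may lie above the free RNA level. Because the limits differ, EGFP-high and EGFP-low do not stand for the same EGFP levels in the 2 sets. EGFP-low cells cannot be called unrecombined, since the transgene (ARQ) in them was at 110 CPM in basal-like cells of set 1, against 14.7 CPM in leukocyte-like cells, and at 386 CPM in basal-like cells of set 2, against 157 CPM. In proximal-like cells of set 2, ARQ was at 616 CPM on the EGFP-high and 707 CPM on the EGFP-low side, so the EGFP split did not separate the transgene there. A gene was counted as past 2-fold with 50 UMIs or more over both sides. In luminal-like cells of set 1, 454 EGFP-high cells (4749 CPM of EGFP) stood against 1937 EGFP-low cells (15.7 CPM). Of 24 chemokine genes tested, 6 were at least 2-fold higher in EGFP-high cells, where 5.0% of all 12132 genes were, and 7 were lower, where 4.59% of all were. The median log2 ratio was −0.060 over the members and −0.13 over all genes. The summed leukocyte markers were 46.7 CPM on the high side and 46.9 CPM on the low side, and the median totals were 34899 and 28661 UMIs per cell.

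**Figure D4:**
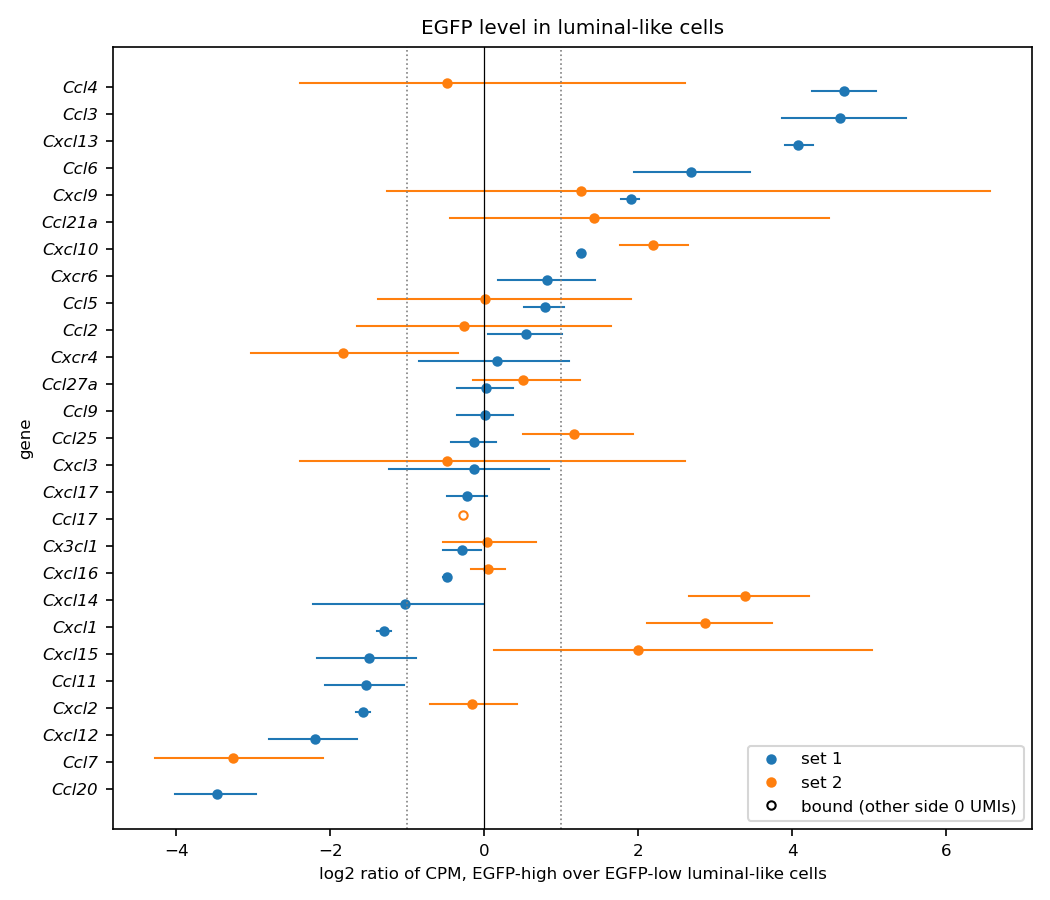
Log2 ratio of EGFP-high over EGFP-low luminal-like cells for each gene tested, in both barcode sets; bars are 95% intervals of the counts, dotted lines mark 2-fold and open points are bounds. In set 1 Cxcl13, Cxcl9 and Cxcl10 lie to the EGFP-high side and Ccl20, Cxcl2 and Cxcl1 to the EGFP-low side, while in set 2 Cxcl14, Cxcl1 and Cxcl10 lie to the EGFP-high side.

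The interferon-induced ligands and Cxcl13 were on the EGFP-high side. Cxcl10 was at 304 CPM against 127 CPM (log2 ratio 1.26, 95% interval 1.21 to 1.31), in 18% against 7.06% of thinned cells. Cxcl9 was at 75.8 CPM against 20.4 CPM (1.90, 1.78 to 2.01). Cxcl13 was at 81.9 CPM against 4.84 CPM (4.08, 3.90 to 4.27), 52.5% of its UMIs coming from 5 cells, and its log2 ratio was 3.37 without the 5 highest cells of each side. EGFP-high cells were concentrated in other clusters than EGFP-low cells, with 222 high and 32 low cells in cluster 1. Within cluster 3 (92 high and 1144 low cells) Cxcl9 was lower in EGFP-high cells (−1.95) and Cxcl10 higher (1.03). Within cluster 10 (103 and 285 cells) Cxcl9 (−2.27) and Cxcl10 (−0.63) were both lower, and Cxcl13 was higher in both clusters (1.27 and 2.44). The direction of Cxcl9 over the whole class was therefore opposite to that inside these 2 clusters. Ccl3 and Ccl4 (log2 ratios 4.62 and 4.67) had 100% and 99% of their UMIs in 5 cells, and without those cells the ratios were 0.46 and −0.11. Ccl6 was at 2.68 (1.94 to 3.45).

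On the EGFP-low side were Ccl20 and the neutrophil-attracting ligands. Ccl20 was at 1.91 CPM in EGFP-high against 21.1 CPM in EGFP-low cells (−3.47, −4.02 to −2.96). Cxcl2 was at 74 against 221 CPM (−1.58, −1.66 to −1.49), and Cxcl1 at 66.8 against 164 CPM (−1.30, −1.39 to −1.21). All 3 kept that direction inside clusters 3 and 10, at −2.42 and −3.17 for Ccl20, −0.66 and −0.43 for Cxcl2 and −0.56 and −0.78 for Cxcl1, so the last 2 stayed under 2-fold there. Cxcl12 (−2.20), Ccl11 (−1.53), Cxcl15 (−1.5) and Cxcl14 (−1.03, −2.22 to −0.019) made up the rest. Cxcl16 was at 215 against 301 CPM (−0.48), under 2-fold.

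In luminal-like cells of set 2 nearly all cells were EGFP-high, with 7389 high (10572 CPM of EGFP) against 189 low cells (211 CPM). Of 18 genes tested, 7 were at least 2-fold higher in EGFP-high cells (background 16.3% of all genes) and 2 lower (background 17.2%), with a median of 0.042 over the members and −0.081 over all genes. Cxcl14 was at 38.9 CPM against 3.74 CPM (3.38, 2.66 to 4.22), Cxcl1 at 25.3 against 3.49 CPM (2.86, 2.11 to 3.73) and Cxcl10 at 50 against 11 CPM (2.19, 1.76 to 2.65). Of the other 4, Ccl25 was at 1.17 (0.50 to 1.93), and Cxcl15 (1.99, 0.12 to 5.04), Ccl21a (1.43, −0.44 to 4.48) and Cxcl9 (1.25, −1.26 to 6.57) had few UMIs on the low side. In 5 cells lay 89.4% of the high-side UMIs of Ccl21a and 62.5% of those of Cxcl9, and without the 5 highest cells of each side their ratios turned to −2.43 and −1.79. Clustering without integration turned Cxcl1 to −1.79 and Cxcl10 to −0.40. Ccl7 (−3.26) and Cxcr4 (−1.83) were on the EGFP-low side, where the summed leukocyte markers were 72 CPM against 34.1 CPM, and their part was not tested. The low side lay mostly in cluster 7 (160 of 189 cells) and the high side in clusters 1, 2, 4, 5 and 6, so EGFP and cluster cannot be told apart in set 2.

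In basal-like cells of set 1 (495 high and 959 low cells), 1 of 11 genes was at least 2-fold higher in EGFP-high cells (background 2.93%) and 4 were lower (background 3.58%). Cxcl10 was at 180 CPM against 57.8 CPM (1.64, 1.5 to 1.77), but 61% of its UMIs came from 5 cells, and the ratio was 0.65 without them. Cxcl2 was at 18.3 against 68.6 CPM (−1.91) and Cxcl1 at 48.4 against 99.5 CPM (−1.04), as on the luminal-like side of that set. Cxcl12 (−3.80) and Cxcl14 (−2.34) were also lower, and Cxcl16 was nearly level at 439 against 484 CPM (−0.14). In set 2 (158 and 182 cells) 3 genes could be tested, of which 0 were higher (background 1.53%) and 2 were lower (background 0.466%), Cxcl1 (−1.21) and Cxcl10 (−2.24). Splitting after thinning turned Cxcl1 to 0.41. The summed leukocyte markers were 9.28 CPM on the high and 26.4 CPM on the low side, with Ptprc at 0 and 3.41 CPM, and their part was not tested.

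Proximal-like cells were split in the same way, a comparison added after the data were seen. In set 1 (102 high and 407 low cells) 3 of 16 genes were at least 2-fold higher in EGFP-high cells (background 1.79%) and 6 were lower (background 3.48%). The lower ones were Cxcl5 (1 against 263 UMIs, −6.16, −11.47 to −3.67), Cxcl1 (176 against 571 CPM, −1.70), Cxcl2 (390 against 1086 CPM, −1.48), Cxcl17 (143 against 376 CPM, −1.40), Cxcl15 (−1.35) and Ccl20 (−1.23). The higher ones were Ccl6 at 52.6 against 7.57 CPM (2.80), Ccl9 (2.23) and Ccl5 (1.09), of whose UMIs 99.1% came from 5 cells. The summed leukocyte markers were also higher on the EGFP-high side, at 281 against 132 CPM, and their part was not tested. In set 2 (83 and 67 cells) 4 of 8 genes were higher in EGFP-high cells (background 6.24%) and 0 lower (background 3.62%). Cxcl2 was at 1217 against 246 CPM (2.30, 2.13 to 2.48) and Cxcl5 at 865 against 189 CPM (2.19, 1.99 to 2.40), the reverse of set 1. Cxcl3 was at 1.71, and the 93 UMIs of Cxcl9 all came from 5 cells. As given above, 5 cells also held most Cxcl2 UMIs of this class in set 2. Clusters 11 and 13 differed in Cxcl2 and Cxcl5, and the split was not repeated within them. EGFP level and cluster were therefore not separated in proximal-like cells. The summed leukocyte markers were 149 CPM on the high and 82.1 CPM on the low side, with Ptprc at 0 and 2.42 CPM, and their part was not tested.

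The last comparison put set 2 over set 1 inside each class. The 2 samples differ in lesion and mouse age, and no label ties a set to a sample. Library, lesion and age can therefore not be told apart in it. In luminal-like cells 3 of 29 genes were at least 2-fold higher in set 2 (background 14.5%) and 17 were lower (background 22.7%), with a median log2 ratio of −2.54 over the members and −0.19 over all genes. Cxcl14 was higher in set 2 (37.7 against 0.983 CPM, 5.26, 4.95 to 5.60), as were Ccl21a (5.16, with 88.2% of its UMIs in 5 cells) and Cxcl5 (1.35). Ccl20 had 1362 UMIs in set 1 and 0 in set 2, which puts it at least 9.87 log2 units lower by a floor of 3 UMIs. Cxcl2 was at 6.32 against 189 CPM (−4.90, −5.0 to −4.81), Cxcl9 at 0.573 against 31.1 CPM (−5.76), Cxcl13 at 0.319 against 20.3 CPM (−5.99) and Cxcl17 at 0.183 against 9.98 CPM (−5.77). Cxcl16 (−2.59, −2.63 to −2.56), Cxcl1 (−2.54) and Cxcl10 (−1.78) were lower by less. Cxcr6, Ccl5, Ccl3 and Ccl4, which were high in leukocyte subclasses, were also among the 17. The summed leukocyte markers of luminal-like cells were 35.2 CPM in set 2 and 47.6 CPM in set 1. Ptprc was at 0.23 and 1.37 CPM, and the part of leukocyte RNA in the levels was not tested. The luminal-like cells of set 2 had 10178 CPM of EGFP against 985 CPM in set 1, and they lay in other clusters, so library, EGFP level and cluster cannot be told apart.

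**Figure D5:**
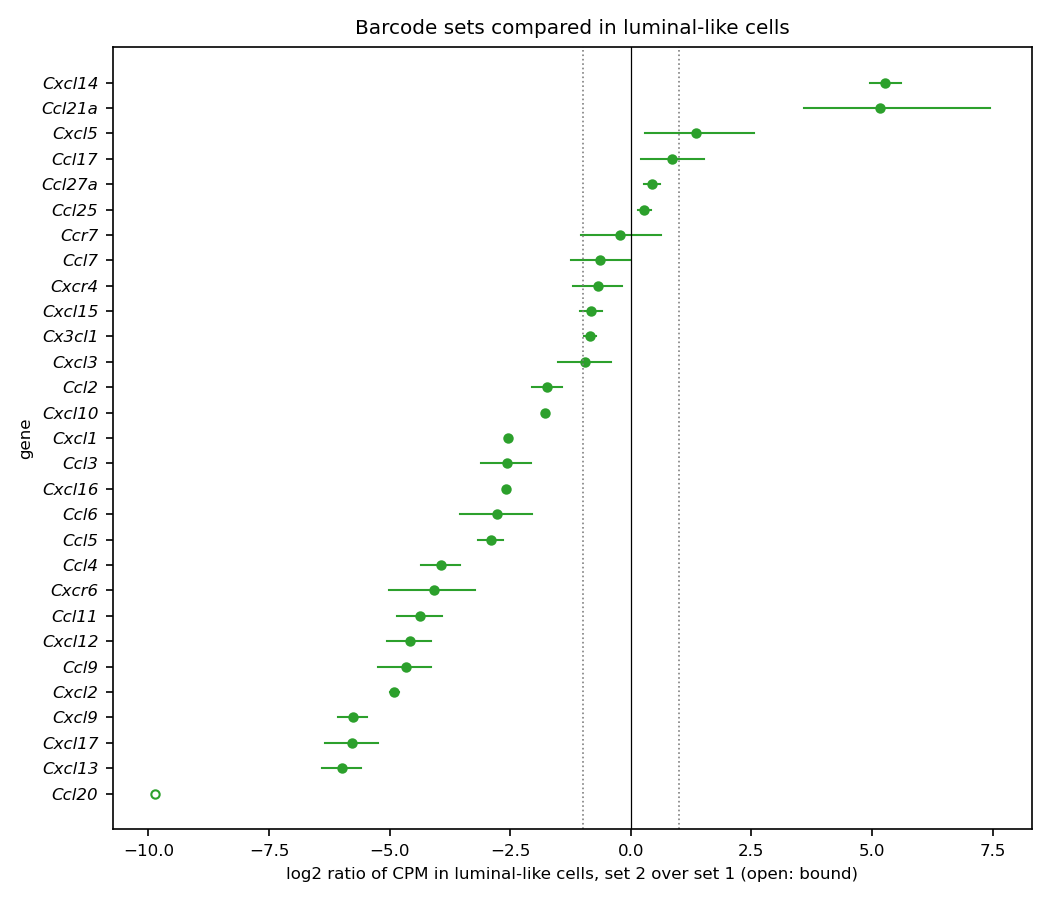
Log2 ratio of set 2 over set 1 for each chemokine gene tested in luminal-like cells; bars are 95% intervals of the counts, dotted lines mark 2-fold and open points are bounds from a floor of 3 UMIs. Cxcl14, Ccl21a and Cxcl5 lie on the set 2 side and 17 genes on the set 1 side, with Ccl20 only as a bound.

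The other classes followed. In basal-like cells 0 of 11 genes were higher in set 2 (background 4.37%) and 4 were lower (background 7.60%), namely Cxcl9 (0 UMIs in set 2), Cxcl2 (−2.0), Cxcl10 (−1.47) and Ccl5 (−1.32). In proximal-like cells 2 of 17 were higher (background 5.42%), the neighbouring genes Cxcl5 (5.26) and Cxcl3 (5.21), and 7 were lower (background 6.59%), led by Cxcl13 (−5.84), Cxcl17 (−4.48) and Ccl20 (−3.34). In fibroblast-like cells 1 of 14 was higher (Ccl11, 1.56; background 5.66%) and 8 were lower (background 5.67%; 9 in either direction, background 11.3%), among them Cxcl9 (−4.37), Cxcl10 (−2.37) and Cxcl14 (−2.24). The leukocyte markers of these cells were lower in set 2 as well (240 against 886 CPM), and their part was not tested. Cxcl9 and Cxcl10 were thus lower in set 2 in the luminal-like, basal-like and fibroblast-like classes.

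In macrophage-like cells 5 of 23 genes were higher in set 2 (background 9.21%), Cx3cr1 (3.03), Ccl12 (2.53), Ccl6 (2.30), Cxcl1 (1.82) and Cxcl14 (1.46). The 8 lower ones (background 6.90%) were Ccr7 (−5.42), Cxcl9 (−4.58), Ccl22 (−4.18), Ccr9 (−3.94), Ccl5 (−2.84), Ccl4 (−1.52), Cxcl10 (−1.46) and Cxcr4 (−1.12). In set 1, 5 cells held 80.9% of the UMIs of Ccr7, 83.9% of Cxcl9, 86.3% of Ccl22 and 97.9% of Ccr9. Without the 5 highest cells of each side, Ccr7 was at −6.24, Cxcl9 at −5.81 and Ccl22 at −2.91. The ratio of Ccr9 could not be computed without them. The 52 macrophage-like cells of set 1 came from leukocyte clusters 9 (31 cells) and 2 (21 cells), and those of set 2 all from cluster 2. The leukocyte-like class as a whole had 15 of 33 genes higher in set 2 (background 10.5%) and 11 lower (background 31.0%), and it held 800 T-like cells in set 1 against 51 in set 2, and the part of this makeup in the counts was not tested.

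Genes that act on chemokines were read from 3 lists. In luminal-like cells, of the 14 measured inducing cytokines and NF-kB or interferon effectors, 10 were at least 2-fold lower in set 2 (background 22.7%) and 1 higher (Il1r1; background 14.5%), with a median log2 ratio of −1.65. The lower ones included Tnf at 4.01 against 26.4 CPM, Nfkbia, the inhibitor that NF-kB itself induces, at 214 against 659 CPM, and Irf1 and Irf7 of the interferon response. Of 12 receptor-signalling and processing genes, 3 were higher in set 2 (Dpp4, a protease that trims chemokines, at 114 against 52.1 CPM, Elmo1 and Pik3cg) and 4 were lower (Rgs1, Adam10, Dock2 and Rac2), with a median of −0.64. Rac2 is itself one of the leukocyte markers, whose sum was lower in luminal-like cells of set 2, and their part was not tested. In the EGFP comparison of set 1, 1 of 14 inducing genes was higher in EGFP-high luminal-like cells (Il1b) and 2 were lower (Il1a and Tnf), 0 of 12 signalling genes were higher and 1 lower (Rac2), against backgrounds of 5.0% higher and 4.59% lower, and of 2 atypical receptors Ackr3, which takes up Cxcl12, was higher.

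Levels by class placed the same genes. With set 1 named first, Tnf was at 106 and 59.2 CPM in proximal-like cells and at 57.2 and 323 CPM in leukocyte-like cells. Il1b was at 124 and 980 CPM and Ifng at 79.7 and 3.23 CPM in leukocyte-like cells. Ackr3 was at 248 and 101 CPM in endothelium-like and 66.7 and 108 CPM in fibroblast-like cells, and Ackr1, a scavenger of venules, at 69.8 and 55 CPM in endothelium-like cells, where 5 cells held 100% and 99.1% of its UMIs. The platelet chemokine Pf4 was at 19.1 and 286 CPM in leukocyte-like cells, and Ccrl2, an atypical receptor that binds chemerin, at 194 and 862 CPM. The leukocyte-like class held 800 and 51 T-like cells and 52 and 183 macrophage-like cells. In macrophage-like cells alone, Tnf was at 476 and 422 CPM, Il1b at 1209 and 1070 CPM and Ccrl2 at 994 and 1158 CPM. Pf4 was at 194 and 405 CPM there. The part of the class makeup in these levels was not tested.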

How the data were processed

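The authors deposited, per gene and cell, the natural log of 1 plus the count scaled to 10000 per cell, made with Seurat from 10x counts of Cell Ranger 3.1.0 on mm10 with the transgene sequences added. They were turned back into whole UMIs, which came out whole for 100% of values above 0 (relative tolerance 0.001). Doublets were scored with Scrublet (scanpy 1.11.5); its automatic limit called 0 cells, so a limit of 0.25, set after the scores were seen, left out 155 cells (2.45%) and 175 cells (1.86%). Cells were integrated over the barcode sets and clustered with Seurat 5.3.0 (R 4.3.3, resolution 0.5), and clusters were named from marker lists. Some naming details were set after the clusters were seen: leukocyte subclass markers counted as leukocyte markers, a class needed 3 detected markers, and leukocyte subclusters were also judged against all other cells. Levels, exact 95% intervals and ratios came from SciPy 1.17.1; ratios against a group with 0 UMIs used 3 UMIs in its place. A gene was compared with 50 UMIs or more over both sides and 50 cells on each side. The scripts were tested on simulated counts. Every chemokine gene with 50 UMIs or more was described; genes of the pathway lists were named when past 2-fold. The members and lists were chosen with earlier results of these data known. Each GEO sample is 1 library, so no test across samples was made, and the depth per cell is given with the results. Alternatives were other EGFP limits, other clustering and count limits, doublets kept, and, added after the data were seen, ratios without the 5 highest cells, within single clusters and in proximal-like cells. Results for a few genes are not reported here.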

Additional observations from a re-analysis of the deposited data

Results flagged for a closer look

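In 6 cases a chemokine gene at least 2-fold apart between EGFP-high and EGFP-low cells went in opposite directions in the 2 barcode sets, all values being log2 ratios of EGFP-high over EGFP-low cells. None of these differences was tested, since each set is 1 library. The EGFP limits rested on 75.3 CPM in set 1 and 1020 CPM in set 2, so the sides are not alike in the 2 sets. A cell that was EGFP-high in set 1 could be EGFP-low by the limit of set 2. Of 15 genes compared in luminal-like cells of both sets, 3 did so. Cxcl1, a neutrophil attractant, was at −1.30 in set 1 and 2.86 in set 2, but at −0.48 and −1.79, the same direction, when cells were clustered without integration. Cxcl14 was at −1.03 and 3.38, and Cxcl15 at −1.5 and 1.99, where the low side of set 2 held 2 UMIs. In basal-like cells 1 of 3 genes did so, Cxcl10, at 1.64 in set 1 (0.65 without the 5 highest cells of each side) and −2.24 in set 2. In proximal-like cells 2 of 7 did so, the Cxcr2 ligands Cxcl5, at −6.16 and 2.19, and Cxcl2, at −1.48 and 2.30. Most Cxcl2 UMIs of that class in set 2 came from 5 cells, and no split within its clusters was made. The EGFP split did not separate the transgene in proximal-like cells of set 2.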

How the results depend on the processing

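No paired analysis was possible because there was 1 library per group. Of 210 recomputed class and comparison summaries, 188 stayed within the limits set for them and 22 moved; of 923 values of single genes, 676 stayed, 232 moved and 15 turned direction. The causes were not tested except where the alternative itself removes cells or genes. After thinning to 2000 UMIs, 6 ligands instead of 11 were in at least 10% of set 2 T-like cells. In luminal-like cells of set 1, the count higher in EGFP-high cells was 1 within cluster 10, and the count lower was 2 without integration, 4 within cluster 3 and 3 within cluster 10. Cxcl9 there was at −1.59 without integration, −1.95 within cluster 3 and −2.27 within cluster 10, Cxcl10 at −0.63 within cluster 10 and Ccl4 at −0.11 without the 5 highest cells. In luminal-like cells of set 2, the count lower was 1 with doublets kept, 4 without integration, 5 for 1 or more against 0 EGFP UMIs after thinning, 0 with the high limit at 8 times, 10 with a minimum of 20 UMIs and 6 without the 5 highest cells. Without integration Cxcl1 was at −1.79 and Cxcl10 at −0.40; without the 5 highest cells Ccl21a was at −2.43 and Cxcl9 at −1.79, and Cxcl9 was at −1.04 with the split after thinning. In basal-like cells of set 1 the count higher was 2 with the split after thinning, 3 with a minimum of 20 UMIs and 0 without the 5 highest cells; in set 2 the split after thinning gave 0 lower and Cxcl1 at 0.41. In proximal-like cells of set 1 the count higher was 1 with doublets kept, and the count lower was 2 for 5 or more against 0 EGFP UMIs, 2 with the split after thinning and 10 without the 5 highest cells. Ccl5 was at −0.33 and Ccl9 at −0.81 without integration, and Ccl5 at −3.33 without the 5 highest cells. In set 2 the count lower was 1 at resolution 1.0 and 1 with a minimum of 20 UMIs. Between the sets, Ccl3 in luminal-like cells was at 0.016 without the 5 highest cells, and 15 genes instead of 9 were past 2-fold in fibroblast-like cells with a minimum of 20 UMIs. Single-cluster, proximal-like and 5-cell alternatives were chosen after seeing the data. Leukocyte subclasses were not rebuilt under the clustering alternatives. The barcode sets were not assigned to tissues, so no value is read as PIN against PCa. With 1 library per sample, intervals leave out variation between mice. Low levels in a class can include free RNA from other cells.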
